A study of Saccharomyces cerevisiae with 18 samples.

Results

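Accessibility of the promoters of 9 daughter cell separation genes was followed through the metabolic cycle of budding yeast. The genes were DSE1, DSE2, DSE3, DSE4, CTS1, SCW11, EGT2, AMN1 and ASH1, a named list, and each was represented by every deposited ATAC-seq peak within 500 bp of its annotated 5' end. Each gene had exactly 1 such peak, so the 9 are among 2042 nuclear peaks, and among 2664 genes linked to any peak. The genes were chosen by their counts per labelled phase, scaled to nuclear counts, so differences between phases are given below as a description with no test.

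When a budding yeast cell divides, a chitin-rich primary septum joins mother and daughter, and the daughter cuts it from its own side with chitinase and glucanases. These enzymes are switched on early in G1, in the daughter, under control of the RAM kinase network, and the transcription factor Swi5 also acts on genes of this period. In the metabolic cycle, cells of a dense continuous culture respire and divide in synchrony, so that cell-cycle genes are read in phase with metabolism.

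ATAC-seq, in which a transposase inserts adapters into open DNA, was applied to nuclei of formaldehyde-fixed Saccharomyces cerevisiae cells taken from a fermenter at 18 ordered time points. By label, Reductive Charging holds 8 libraries, of which time points 1 to 5 are called early here and 16 to 18 late. Time points 6 to 10 are Oxidative and 11 to 15 Reductive Building, 5 libraries each. Every time point was sampled with 1 library, so p-values measure only the spread between time points. The sources used here do not give the strain, the medium or which of 2 collection batches a library belongs to, so batch and phase cannot be told apart.

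Total counts ran from 21254 at time point 16 to 29314373 at time point 4. Levels are nuclear CPM, a peak's count scaled to a total of 1000000 nuclear counts, which are those in the 2042 peaks outside the mitochondrial genome and the ribosomal DNA; nuclear counts ran from 9228 to 12477489. In 13 libraries, called well covered, at most 10% of nuclear peaks were at 0, and the highest share among them was 2.06% at time point 17. The other 5, time points 11, 13, 15, 16 and 18, had 11.2%, 24.4%, 65.4%, 84.2% and 13.0% at 0. At time point 16 a peak with no count could still have a level of up to 325 (3 counts), above most early levels of these genes other than AMN1, ASH1, SCW11 and EGT2, and 8 of the 9 peaks had no count there. Intervals and such limits cover counting error only.

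The peaks lay upstream of the genes they stand for. In coordinates of build R64, the CTS1 peak (YLR286C, minus strand) spanned chromosome XII, 710303 to 711064, and began 167 bp upstream of the 5' end. The DSE4 peak (YNR067C, minus strand) spanned chromosome XIV, 759102 to 759903, and began 3 bp upstream. The DSE1 peak (YER124C, minus strand) spanned chromosome V, 409106 to 409643, and began 43 bp upstream. The DSE4 and DSE1 peaks overlapped no coding gene model, and the CTS1 peak ran 74 bp into its upstream neighbour YLR287C.

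The DSE2 peak (YHR143W, plus strand) spanned chromosome VIII, 384438 to 385138, and ended 372 bp upstream of the gene. The DSE3 peak (YOR264W, plus strand) spanned chromosome XV, 818196 to 818842, and ended 24 bp upstream. The SCW11 peak (YGL028C, minus strand) spanned chromosome VII, 443161 to 444269, and began 252 bp upstream. Each reached into the end of the tandem neighbour upstream, by 51 bp for CHS7 at DSE2, 140 bp for GPN2 at DSE3 and 628 of 1109 bp for CWH41 at SCW11.

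The remaining 3 peaks were also linked to other genes and cannot say which gene they serve. The EGT2 peak (YNL327W, plus strand; chromosome XIV, 23009 to 24079) was the 1 peak of the 9 that contained its gene's 5' end, and it also contained the 5' end of the divergent gene MDJ2 and lay within 500 bp of PEX6. The AMN1 peak (YBR158W, plus strand; chromosome II, 554300 to 556236) was 1937 bp long, wider than 99.1% of nuclear peaks, and contained the 5' end of the divergent gene ICS2. The ASH1 peak (YKL185W, plus strand; chromosome XI, 93384 to 94138) lay in the intergenic region shared with MTR2. Of the 9 peaks 8 were wider than the median nuclear peak of 595 bp.

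**Figure D1:**
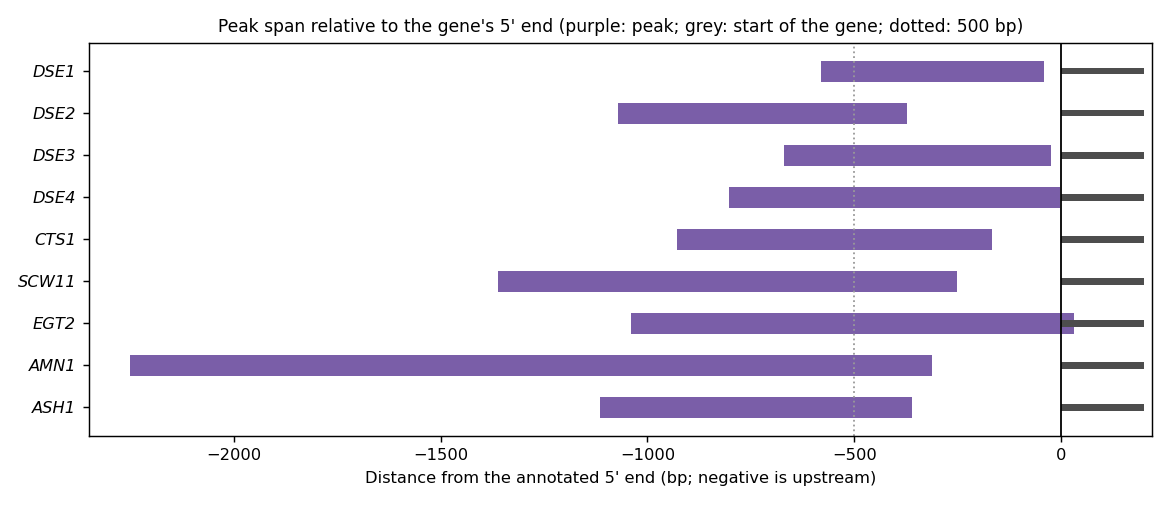
Span of each peak relative to the annotated 5' end of its gene, in bp, with upstream to the left; purple bars are peaks, grey bars the first part of the gene, and the dotted line marks 500 bp. Of the 9 peaks 8 lie wholly upstream, from 3 bp at DSE4 to 372 bp at DSE2 at the near edge, and the EGT2 peak covers the gene's 5' end.

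Most of the peaks were of middling height. Averaged over the 13 well-covered libraries, the median nuclear peak had a level of 172, and 7 of the 9 lay above it. DSE1 was the lowest at 102 and CTS1 had 165, then came DSE2 with 207, DSE4 with 208, DSE3 with 230, EGT2 with 294, SCW11 with 298 and ASH1 with 398. AMN1 stood apart at 2938, above 97.7% of nuclear peaks. These levels are per peak and not per base, and the AMN1 peak is also the longest.

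Through the time course the 9 promoters had their highest well-covered levels in early Reductive Charging or the first part of the Oxidative phase. Levels in Reductive Building and at time point 17 were lower than these for the DSE genes, CTS1, SCW11 and EGT2, whereas ASH1 had like levels in Reductive Building and the Oxidative phase and AMN1 was still high at time points 14 and 17. In well-covered libraries the highest level was at time point 7 for DSE1, DSE4 and CTS1, at 4 for DSE2, SCW11 and EGT2, at 3 for DSE3 and AMN1, and at 2 for ASH1. Since less signal per cell and fewer daughter cells in G1 would look the same in a bulk sample, they cannot be told apart.

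**Figure D2:**
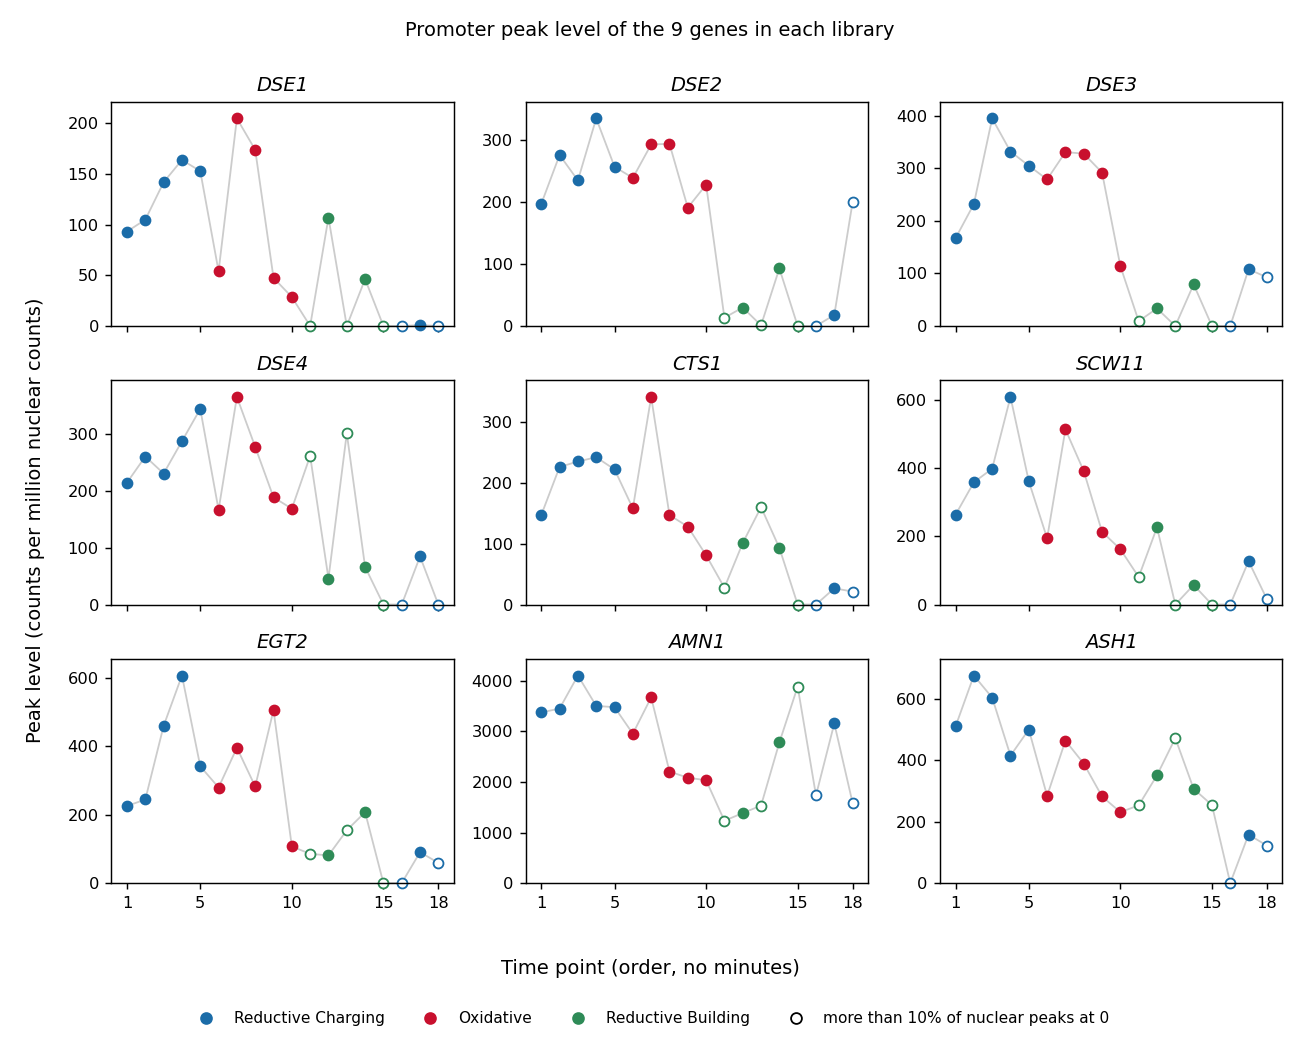
Level of each gene's promoter peak, in nuclear CPM, in each of the 18 libraries in order of time point, with 1 panel a gene; colour gives the labelled phase, open circles mark the poorly covered libraries, and each axis starts at 0. DSE1 runs from 93.3 to 205 at time points 1 to 5, 7 and 8 and is at 0.847 at time point 17, while AMN1 is at 1233 or above in all libraries.

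CTS1 encodes the endochitinase that digests the primary septum. Its peak stood at 147, 226, 235, 242 and 222 at time points 1 to 5, at 158, 341, 147, 128 and 81.0 at Oxidative time points 6 to 10, and at 27.6, 101, 160, 93.1 and 0 in Reductive Building. At time points 16, 17 and 18 it stood at 0, 26.6 and 21.3. The late values at 17 and 18 lay below every early and every Oxidative value.

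DSE4, also called ENG1, encodes the daughter-specific endo-1,3-beta-glucanase that acts with the chitinase. Its levels were 215, 261, 231, 288 and 345 at time points 1 to 5, and 167, 366, 278, 189 and 169 at 6 to 10. In Reductive Building they were 262, 45.8, 302, 66.3 and 0, and in late Reductive Charging 0, 84.7 and 0. The well-covered Reductive Building libraries, 12 and 14, lay below all Oxidative values, whereas the poorly covered time points 11 and 13 lay within the Oxidative range.

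DSE2 encodes a daughter-specific secreted protein that resembles glucanases. Its levels were 197, 276, 235, 335 and 257 in early Reductive Charging and 239, 293, 294, 191 and 228 in the Oxidative phase. Reductive Building gave 13.3, 29.8, 1.07, 92.9 and 0, the value at time point 13 resting on a single count, and late Reductive Charging gave 0, 17.8 and 200. All 5 Reductive Building values lay below all Oxidative values. The last library was back in the early range while time point 17 was more than 10-fold lower than any early value.

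SCW11 encodes a cell wall protein of the glucanase family. Its levels were 263, 358, 398, 608 and 361 at time points 1 to 5, 194, 513, 391, 213 and 162 at 6 to 10, and 80.6, 226, 0, 57.2 and 0 at 11 to 15, followed by 0, 127 and 15.8. EGT2, which encodes a GPI-anchored cell wall protein needed for proper separation, had 225, 244, 459, 606 and 341, then 279, 395, 282, 505 and 107 in the Oxidative phase, 85.2, 80.8, 154, 207 and 0 in Reductive Building and 0, 90.1 and 59.1 in late Reductive Charging. Time point 12 lay within the Oxidative range for SCW11 and time point 14 below it, while for EGT2 time point 14 lay above the lowest Oxidative library, time point 10, and time point 12 below all 5.

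DSE1 encodes a daughter-specific WD40-repeat protein linked to cell wall metabolism. Its levels were 93.3, 105, 142, 164 and 153 at time points 1 to 5 and 54.1, 205, 174, 47.5 and 28.6 at 6 to 10, the widest ratio of highest to lowest among the 9 within the Oxidative phase. At Reductive Building time points 12 and 14 it had 107 and 46.3, and at 11, 13 and 15 no count. Late Reductive Charging had 0, 0.847 and 0. The value at time point 17 came from 5 counts (Wilson 95% interval 0.362 to 1.98), and no count at time point 18 allows a level of up to 2.06, so both lay far below the lowest early value.

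DSE3 encodes a daughter-specific bud neck protein. Its peak had 167, 232, 395, 332 and 305, then 279, 331, 328, 292 and 114 in the Oxidative phase, and 9.18, 33.4, 0, 79.2 and 0 in Reductive Building. Late Reductive Charging gave 0, 108 and 92.7. Here too the Reductive Building values at time points 12 and 14 lay below every Oxidative value, as for 10.3% of nuclear peaks. So did those at the poorly covered time points 11, 13 and 15, with no share over all peaks taken. Both late values at 17 and 18 lay below the early range.

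Among the regulators, AMN1 encodes a daughter-specific antagonist of the mitotic exit network. Its levels were 3375, 3452, 4106, 3505 and 3479 in early Reductive Charging, 2954, 3673, 2207, 2084 and 2035 in the Oxidative phase, 1233, 1384, 1532, 2781 and 3886 in Reductive Building, and 1734, 3158 and 1583 at time points 16 to 18. ASH1 encodes the daughter-specific repressor of HO, whose mRNA is carried to the bud tip. It had 510, 676, 604, 415 and 500, then 284, 464, 389, 282 and 231, then 253, 351, 472, 307 and 254 in Reductive Building, and 0, 158 and 122 in late Reductive Charging. For ASH1 4 of the 5 Reductive Building values lay within the Oxidative range and time point 13 just above it. For AMN1 time points 11 to 13 lay below every Oxidative value, 14 within the Oxidative range and 15 above it.

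Ranks within a library, which do not depend on scaling, gave the same picture. The median percentile of the 9 peaks among nuclear peaks ran from 55.7 to 70.3 at time points 1 to 5 and from 59.7 to 66.5 at time points 6 to 9. It was 45.2 at time point 10, 32.4 and 28.4 at Reductive Building time points 12 and 14, and 39.2 at time point 17. AMN1 stayed at or above percentile 91.1 in all of these libraries, while DSE1 moved between 52.5 at time point 7 and 4.11 at time point 17.

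**Figure D3:**
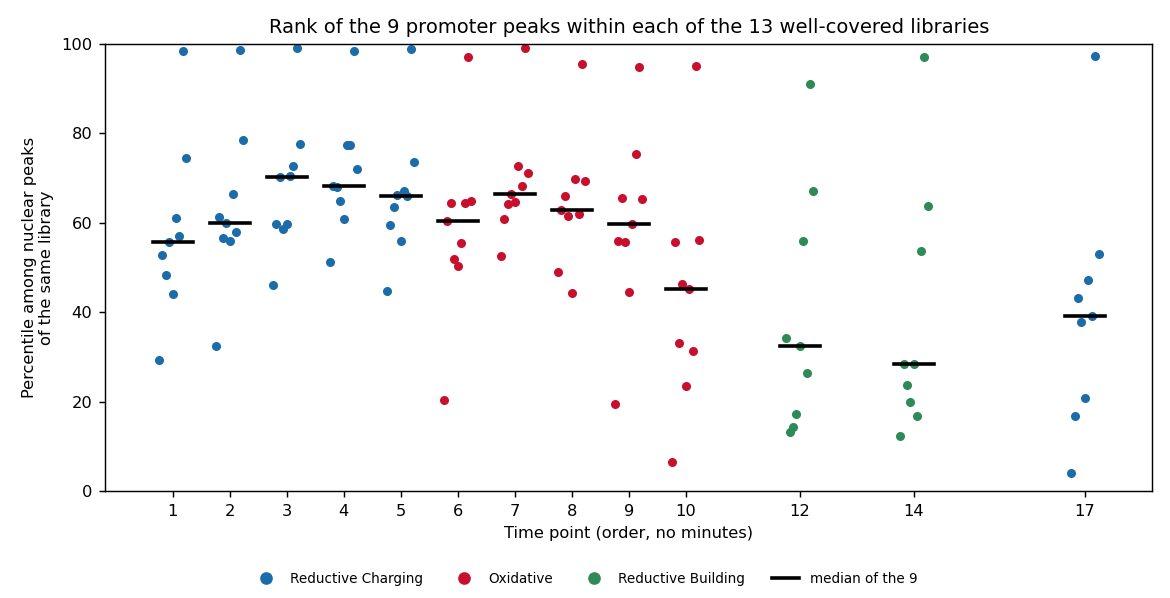
Percentile of each of the 9 peaks among the 2042 nuclear peaks of the same library, in the 13 well-covered libraries in order of time point; points are genes, colour is the labelled phase and black bars are medians of the 9. The median is 70.3 at time point 3, 45.2 at 10 and 28.4 at 14, and the point near the top of every library is AMN1.

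As phase contrasts, which chose the genes and are not tested here, Oxidative against Reductive Charging varied with the libraries used. Reductive Building was lower in median. In the 13 well-covered libraries the 9 log2 fold changes of Oxidative against Reductive Charging had a median of -0.13 (all peaks 0.02), and 7 of 9 were below 0. Those of Reductive Building against Oxidative had a median of -0.99 (all peaks 0.02), with 8 of 9 below 0, and those of Reductive Charging against Reductive Building a median of 1.19 (all peaks -0.03), with 9 of 9 above 0. DSE3 had -2.23 ± 0.56 (SE) in Reductive Building against Oxidative, DSE4 had -2.02 ± 0.49 and DSE2 had -2.0 ± 0.72, whereas ASH1 had 0.04 ± 0.38. Calls among the 9 are not given for these contrasts. Over all peaks edgeR called 2.78%, 1.49% and 1.44% in the order above. The contrasts share libraries, and Reductive Building rested on time points 12 and 14.

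Over all 18 libraries edgeR called 0% of peaks in each of the 3 phase contrasts, with 52, 101 and 149 peaks at an unadjusted p under 0.05, and DESeq2 called 0, 12 and 32 peaks. The 9 medians were then 0.20, -1.47 and 1.23 against 0.14, -0.22 and 0.10 over all peaks. For Oxidative against Reductive Charging the 9 genes' median thus had the opposite sign in the 2 sets of libraries.

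Further counts set single libraries side by side. Time points 12 and 14 both lay below all 5 Oxidative levels for DSE2, DSE3 and DSE4, 3 of 9, against 10.3% of nuclear peaks. Time point 10 was the lowest Oxidative library for 7 of 9, the exceptions being DSE2 and DSE4, against 16.6% of nuclear peaks. Both counts use the levels that chose the genes and were taken with earlier results known. They are descriptions and not tests of the genes.

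Late and early Reductive Charging carry the same phase label, and comparing them asks whether the cycle's end resembled its start at these promoters. DSE1 and CTS1 fell: late minus early was -7.55 ± 1.10 (log2, SE) for DSE1 (edgeR adjusted p = 0.00530) and -2.95 ± 0.63 for CTS1 (edgeR adjusted p = 0.0180), with 3 late against 5 early libraries. Leaving out time point 2, 3, 4 or 5 ended the CTS1 call (edgeR adjusted p up to 0.0661). These were 2 of 9, against 5.08% of all 2085 peaks tested and 4.65% called lower. All 9 fold changes were below 0, as were 64.8% of all peaks, and their median was -2.21 against -0.36 over all peaks. SCW11 (-2.36 ± 0.76), EGT2 (-2.21 ± 0.64) and ASH1 (-1.85 ± 0.56) did not pass (edgeR adjusted p = 0.0968, 0.0719 and 0.0818), nor did DSE4 (-2.51 ± 1.12), DSE3 (-1.41 ± 0.59), DSE2 (-1.11 ± 0.78) and AMN1 (-0.54 ± 0.44), whose edgeR adjusted p ran from 0.219 to 0.568. The DSE1 fold change rests on 5 late counts and its size depends on the prior count of the fit.

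The late group held 2 of the 5 poorly covered libraries, so the share of nuclear peaks at 0 moved with the contrast: at most 0.147% in the early libraries, and 84.2%, 2.06% and 13.0% in the late ones. Its part in the result was not tested. Without time point 16, 4 of the 9 fell, DSE1 (-7.53 ± 1.07, edgeR adjusted p = 0.00733), CTS1 (-2.86 ± 0.49, adjusted p = 0.0109), ASH1 (-1.64 ± 0.28, adjusted p = 0.0109) and EGT2 (-2.05 ± 0.52, adjusted p = 0.0325), against 14.2% of all peaks called and 7.48% called lower. Without time point 17 the calls were 6 of 9, all lower, against 39.7% of all peaks called and 34.6% called lower. Without time point 18 they were 5 of 9, all lower, against 18.5% called and 15.7% called lower.

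Time point 17 had 2.06% of nuclear peaks at 0, against at most 0.147% in the early libraries. Its nuclear count of 5901353 nevertheless lay inside the early range of 2073443 to 7857420. The part of the empty peaks in the result was not tested. Set alone against the early libraries, time point 17 is the 1 form of the late against early comparison within well-covered libraries. There 8 of 9 were called lower, all but AMN1 (0.02 ± 0.20), against 33.6% of all peaks called and 21.9% called lower; the lone late library was assumed to vary like the others. DSE1 was lowest (-7.05 ± 0.86), then DSE2 (-3.67 ± 0.50), CTS1 (-2.81 ± 0.49), EGT2 (-1.88 ± 0.56), ASH1 (-1.56 ± 0.30), DSE4 (-1.46 ± 0.40), SCW11 (-1.45 ± 0.42) and DSE3 (-1.22 ± 0.45), with edgeR adjusted p from 1.54e-05 to 0.0423. In levels, all 9 lay below all 5 early values at time point 17, as did 43.1% of nuclear peaks, and 8 of 9, all but DSE2, did so at both 17 and 18, as did 28.4%. Wide change was thus common at this time point, and 7 of the 9 fold changes lay inside the middle 80% of all peaks, from -3.08 to 0.93.

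**Figure D4:**
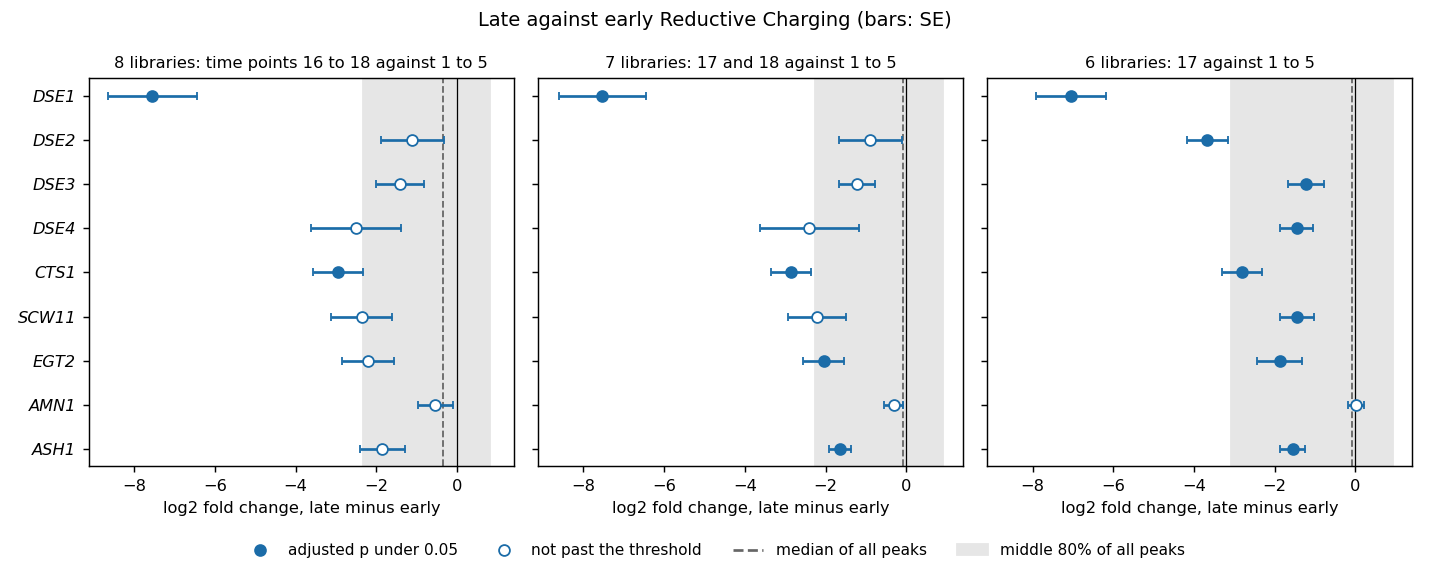
Log2 fold change of late against early Reductive Charging for each gene's peak, with SE bars, in 3 sets of libraries; filled points passed the edgeR threshold, the dashed line is the median of all peaks and the grey band their middle 80%. DSE1 lies left of the band in each panel, at -7.55, -7.53 and -7.05, and AMN1 lies near 0 in the last. Also left of the band are DSE4, CTS1 and SCW11 in the first panel, DSE4 and CTS1 in the second and DSE2 in the last.

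Within the Oxidative phase and within early Reductive Charging, time was fitted as a slope in log2 per time point. In the Oxidative libraries all 9 slopes were below 0, as were those of 47.7% of all peaks. The 9 ran from -0.07 ± 0.15 for DSE2 to -0.52 ± 0.33 for DSE1. Of these 0 of 9 passed, against 0.288% of all peaks (edgeR adjusted p of the 9 at least 0.665). Without time point 10, 6 of 9 slopes were below 0, as were those of 50.9% of all peaks. Across early Reductive Charging 8 of 9 slopes were above 0, while 50.2% of all peaks had a slope below 0. The highest was 0.30 ± 0.12 for EGT2 and the exception was ASH1 at -0.07 ± 0.08. Here 0 of 9 passed, against 0% of all peaks (edgeR, 0 of 2085, and 0 with DESeq2). With edgeR 84 peaks had an unadjusted p under 0.05, of which 3 were among the 9. The difference between the slopes, added after seeing the data, was below 0 for all 9 and for 49.9% of all peaks. It passed for 0 of 9, against 0.24% of all peaks. The largest was -0.75 ± 0.36 for DSE1 (edgeR adjusted p = 0.719).

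The 9 peaks varied together across the 13 well-covered libraries. All 36 pairs had a Pearson correlation of log2 levels above 0, with a median of 0.647 and a range from 0.105 (DSE1 and AMN1) to 0.912 (DSE1 and CTS1), where the median pair of nuclear peaks had 0.039. CTS1 followed the mean of the other 8 most closely (0.929) and AMN1 least (0.469). These are descriptions over 13 libraries that share a time course, and the genes were chosen for their phase pattern. The DSE1 level of 0.847 at time point 17, from 5 counts, enters its correlations and the mean of the 9. Its weight in them was not tested.

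Outside the 9, the peaks whose log2 level followed their mean most closely over the 13 libraries were those of COT1, a vacuolar zinc transporter gene (shared with YOR316C-A, 0.928), INP2, the peroxisome receptor for the myosin that carries organelles into the bud (0.910), RPL23A, a ribosomal protein gene (0.886), PTP3, a phosphatase of MAP kinases (0.884), and PCL2, a G1 cyclin (0.883). By rank correlation 3 of these 5 were again among the first 5. For DSE4 alone they were the peaks of BUR6 with YER158C (0.918), of SER1, FYV12 and RPS30B (0.897), and of RPL17B with ATG27 (0.896).

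Genes upstream and downstream of daughter separation were looked at as lists. For the transcription factor gene SWI5 and the RAM network, 3 genes had a peak (SWI5, CBK1 and KIC1). In late against early Reductive Charging 0 of these 3 passed, with a median of -3.19 against -0.36 over all peaks. At time point 17 alone, where 33.6% of all peaks were called, SWI5 was called at -4.03 ± 1.12 and the kinase gene KIC1 at -2.30 ± 0.66 (edgeR adjusted p = 0.0128 and 0.0104), each peak being shared with another gene, EKI1 and BIG1. The kinase gene CBK1 had 0.45 ± 0.67 in the 8 libraries and 0.92 ± 0.54 at time point 17 and did not pass (edgeR adjusted p = 0.815 and 0.197).

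Of 17 other genes of early G1, 15 had a peak, 12 of these lay below the median of all peaks in late against early Reductive Charging, and their median was -0.80. PIR1, a cell wall protein gene, was the 1 of 15 that passed, at -2.67 ± 0.57 (edgeR adjusted p = 0.0184), against 5.08% of all peaks. Its level was 435 ± 95.2 (SD, n = 5) early and 50.3 and 68.7 at time points 17 and 18. Without time point 16, where 14.2% of all peaks were called and 7.48% called lower, SIC1 and PCL2 passed as well. Their fold changes were -6.64 ± 1.16 and -1.22 ± 0.31 (edgeR adjusted p = 0.0116 and 0.0318). SIC1, the inhibitor of S-phase cyclin kinase (peak shared with BOS1), stood at 81.9 ± 26.9 (SD, n = 5) early and at 1.02 and 0 at time points 17 and 18. At time point 17 alone, where 33.6% of all peaks were called and 21.9% called lower, 9 of the 15 were called lower and 1, SWI4, a subunit of the G1 factor SBF, was called higher (2.65 ± 0.52, edgeR adjusted p = 0.000646).

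Of 17 septum and cell wall genes 9 had a peak, and 1 of the 9 passed in late against early Reductive Charging, against 5.08% of all peaks. This was CHS3, the chitin synthase that makes most cell wall chitin, at -3.53 ± 0.89 (edgeR adjusted p = 0.0407). It stood at 83.6 ± 48.2 (SD, n = 5) early and at 6.78 and 5.49 at time points 17 and 18. The list's median was -0.60. At time point 17 alone CHS3 had -3.44 ± 0.90, and UTH1, a cell wall gene whose peak is shared with YKR041W, had 0.71 ± 0.17. The list's median was then 0.29 against -0.09 over all peaks. In the mitotic exit list 6 of 14 genes had a peak, 0 passed, and the median was 0.13. Without time point 16 the GTPase gene TEM1, whose peak is shared with RPS1B, passed at 1.07 ± 0.21 (edgeR adjusted p = 0.0164). In that fit 14.2% of all peaks were called. At time point 17 alone the phosphatase gene CDC14 had 1.53 ± 0.40 (peak shared with PTR3) and TEM1 had 0.74 ± 0.21. The median of the 6 was then 0.51 against -0.09 over all peaks. In the ASH1 mRNA transport list 3 of 6 had a peak, 0 passed in the 8 libraries or at time point 17 alone, and the medians were -1.21 and -0.67.

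In the Oxidative and early Reductive Charging trends 0 peaks of these lists passed. Between Oxidative and Reductive Charging over 18 libraries the extremes of the lists were SCW10 (1.28 ± 0.77, shared with FKS3) and SUN4 (-3.06 ± 1.35) among septum genes, HO (1.23 ± 0.66) and SWI4 (-1.01 ± 1.11) in early G1, SWI5 (0.80 ± 1.11) and CBK1 (0.04 ± 0.84) in the RAM list, DBF20 (0.38 ± 1.11, shared with RPC40) and DBF2 (-0.57 ± 1.19) in mitotic exit, and KHD1, named HEK2 in the annotation (0.13 ± 0.72, shared with RIB1), and MYO4 (-0.36 ± 1.01, shared with FRT2) in ASH1 transport, each with an edgeR adjusted p of 1.00. In the well-covered libraries SUN4 had -0.59 ± 0.27 (edgeR adjusted p = 0.277), and 3 septum genes were called, FKS1 (0.80 ± 0.15), UTH1 (0.96 ± 0.24) and HOF1 (-1.20 ± 0.31, shared with EIS1), with edgeR adjusted p of 0.0215, 0.0432 and 0.0434, as was TEC1 in early G1 (0.72 ± 0.18, edgeR adjusted p = 0.0432), against 2.78% of all peaks.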

How the data were processed

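ATAC-seq peak counts of 18 libraries were used, as raw counts per peak deposited by the authors for 1 common peak list (2042 nuclear, 32 mitochondrial and 12 ribosomal DNA peaks). Build R64 and the tools Trimmomatic, Bowtie2 and MACS2 are named per the submitters' processing notes. Versions, the counting tool, the insertion-site shift and duplicate handling are not stated in the sources used here, and retained duplicates would lower the effective depth. All 18 count columns were matched to samples, and 0 columns were left over. Each peak within 500 bp of a coding gene's 5' end (the start of the RefSeq R64 gene model) was linked to it. Levels were scaled to nuclear counts, and log2 levels used a pseudocount of 1.

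The quasi-likelihood test of edgeR 4.0.16 was run in R 4.3.3 after filterByExpr with TMM scaling and robust moderation, with p-values adjusted by Benjamini-Hochberg over all peaks with a threshold of 0.05. The filter removed 0 peaks of the 3-phase fits and 1 of the Reductive Charging fits, and all 9 peaks passed it. Standard errors were derived as the absolute fold change over the square root of F. Phase fits used all 18 libraries, within-phase fits their own libraries. The tests were tried on simulated counts. The simulated libraries kept the real totals but shared 1 average composition, and their 200 changed peaks went up or down at random. In the real late against early comparison 97 of 106 calls were lower, so recovery there may differ. Between 3.33% and 6.78% of simulated calls were false, the most in the Oxidative trend. For late against early Reductive Charging 2.49% of 2-fold, 23.9% of 4-fold and 58.1% of 8-fold changes were recovered. For Oxidative against Reductive Charging 30.8% of 4-fold changes were recovered over all libraries and 77.1% in well-covered libraries. The Oxidative and early Reductive Charging trends recovered 35.3% and 70.1% of 4-fold changes. A gene that did not pass may thus still have changed, also by 4-fold or more. The genes, gene lists, tests and alternatives were chosen with earlier results of these data known, so no pattern here is independent of that choice. Text was limited to the 9 genes, list genes passing a within-phase test (up to 3 a list) or with extreme Oxidative against Reductive Charging changes, and the 5 or 3 peaks most like the 9 genes or DSE4. Genes of the lists named for time point 17 alone, and those called between Oxidative and Reductive Charging in the well-covered libraries, were picked after their values were seen. Where several peaks linked to a list gene, the highest stood for it. Alternatives were other scalings and filters, DESeq2 1.42.0, subsets of libraries and other linking distances. Plots were drawn with matplotlib 3.10.9. One further gene of the lists is not reported here.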

Additional observations from a re-analysis of the deposited data

Results flagged for a closer look

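In the Oxidative phase the DSE3 peak at time point 10 stood apart from the other 4 libraries, at 114 against a next lowest level of 279. Its gap to that library was 0.760 of the whole range, above the critical value of 0.710 for 5 samples. This was 1 of 27 combinations of gene and phase looked at, of which chance flags about 1 in 20.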

How the results depend on the processing

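Counts of peaks called depended on which libraries entered. Oxidative against Reductive Charging had 0 calls with all 18 libraries, 1 with the compared phases only and 58 in the well-covered libraries, where leaving out each library gave 4 to 119. Reductive Building against Oxidative had 0, 12 with DESeq2, 0 to 36 leaving out each library, and 31 in the well-covered libraries (14 to 104). Reductive Charging against Reductive Building had 0, 32 with DESeq2, 0 to 37 leaving out each library, and 30 in the well-covered libraries (3 to 137). The highest counts, 36, 37, 104 and 137, were those without time point 14. Late against early Reductive Charging had 106, 245 with DESeq2, 701 in the well-covered libraries and 57 to 829 leaving out each library. DSE1 was called in all 16 settings of that comparison and CTS1 in 12 (without time points 2, 3, 4 or 5 it was not, up to an adjusted p of 0.0661). AMN1 turned to 0.0168 in the well-covered libraries, and the other 8 were lower in all 16. The cause of these shifts was not tested.

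The Oxidative trend had 6 calls, 12 with DESeq2 and 0 to 25 leaving out each library; leaving out each library, the slopes ran from -0.424 to 0.0364 for DSE3, -0.358 to 0.0134 for DSE4 and -0.416 to 0.237 for EGT2, above 0 only without time point 10. The early Reductive Charging trend had 0, and 0 to 3 leaving out each library; AMN1's slope ran from -0.0136 (without time point 1) to 0.0861. The difference of slopes had 5 calls, 0 with nuclear scaling, 9 with DESeq2 and 0 to 10 leaving out each library, and for ASH1 the difference ran from -0.257 to 0.0454, above 0 without time points 1 (0.0280) and 10. Within 250 bp, 5 of the 9 genes had a peak, and within 1000 bp all 9. Scaling moved the median of all peaks in late against early Reductive Charging to -0.18 with DESeq2 size factors and -0.59 with nuclear totals, from -0.36, and all 9 fold changes stayed below that median. With nuclear totals 4 of the 9 were called (ASH1, CTS1, DSE1 and EGT2). No paired analysis was possible because each time point is a single library and the replicate numbers only follow the order within a phase, so nothing pairs libraries across phases.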
